A study of Homo sapiens with 12 samples.

Results

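The 10 genes described here are ATF4 and genes of the amino acid response that is named for it: ATF4, ATF5, CEBPB, ASNS, CHAC1, TRIB3, VLDLR, SLC1A5, SLC7A5 and SLC3A2. They were chosen by gene name, with earlier results of these data known, from the 29696 genes of the expression table. All 10 were found there and in both m6A peak lists. The cells were A375, an established human melanoma cell line, infected with a lentivirus that carried a short hairpin RNA. In the shALKBH5 group (labelled ALKBH5 knockdown) the hairpin was against the m6A demethylase ALKBH5, in the pLKO.1-puro vector. In the shCtrl group (labelled wild type) it was a control hairpin, called Scramble in the study's methods, whose vector is not named. Each group had 3 input libraries, which give the expression values, and 3 libraries immunoprecipitated with an antibody against m6A, the methylated adenosine found in mRNA. Which ALKBH5 hairpin the sequenced shALKBH5 cells carried is not given in the sources used here, and although the study states in general that its experiments were repeated independently, no label says whether these replicates came from separate infections, so the p-values measure the spread between these libraries, which may be technical.

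In the amino acid response, uncharged tRNA activates the kinase GCN2, which phosphorylates the translation factor eIF2. Most translation then slows, while short upstream reading frames in the ATF4 mRNA allow more ATF4 protein to be made. ATF4 pairs with C/EBP proteins on composite DNA elements near genes for amino acid synthesis, amino acid import and feedback control. The protein level of ATF4 is therefore set largely by translation, and only RNA was measured in these libraries.

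The targeted gene was examined first. ALKBH5 was at 3.39, 3.92 and 3.12 FPKM (fragments mapped to a gene, scaled to its length and to the library's mapped fragments) in the shALKBH5 libraries and at 19.3, 17.8 and 17.6 FPKM in the shCtrl libraries, with no overlap between the groups. Of the 9 melanoma and melanocyte markers with an entry, 6 reached the filter of a mean of 0.5 FPKM, and SOX10, S100B, MIA, CSPG4 and PRAME were the abundant ones. MITF was the other, at means of 1.26 FPKM in shALKBH5 and 0.777 FPKM in shCtrl cells. It was called higher (limma adjusted p = 0.0475), a call lost in 8 of the 13 alternative settings. TYR was listed at 0 in the shCtrl libraries, and PMEL and DCT were below the filter. PMEL had means of 0.611 FPKM in shALKBH5 and 0.237 FPKM in shCtrl cells. The melanoma markers summed to between 495 and 504 FPKM in shALKBH5 libraries and between 443 and 468 FPKM in shCtrl libraries. S100B rose from a mean of 32.9 FPKM to 82.1 FPKM (limma adjusted p = 1.009e-06), and CSPG4 fell from 84.3 to 73.2 FPKM. MIA rose from 92.7 to 105 FPKM (limma adjusted p = 0.0312), a call lost in 6 of the 13 alternative settings. SOX10 and PRAME were not called. The 6 markers of other skin cells with an entry summed to no more than 2.08 FPKM in any library. In such bulk RNA, fewer cells of a state and less RNA per cell cannot be told apart.

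ATF4 binds composite elements whose core has the letters TGATGNAA, and the promoters of the 10 genes were searched for these letters on both strands. The RefSeq promoter table (GRCh38.p14) held 21 windows for the 10 genes, each running from 250 bases before to 50 bases after an annotated start. The letters were present for 4 of the 10 genes, ASNS, CHAC1, SLC1A5 and SLC3A2, in 1 window of each. The 10 genes had more windows per gene than the table as a whole, which gives more room for a match. The letters were present for 18 of the 58 genes of the other pathway lists that had an entry in the table. Among all 27305 genes of the table the share was 4.46%, and among all 35116 windows it was 3.62%. The stricter TGATGCAA, which is contained in the first search, was present for CHAC1 and SLC1A5, for 14 of the same 58 other pathway genes, and for 1.08% of all genes or 0.866% of all windows. The matches are shown with up to 10 bases on each side, 5′ to 3′ on the gene's own strand, with the matching letters in capitals.
ASNS, chr7:97872459-97872486, minus strand: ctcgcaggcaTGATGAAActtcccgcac
CHAC1, chr15:40953252-40953279, plus strand, match on the opposite strand: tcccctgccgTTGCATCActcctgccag
SLC1A5, chr19:46784894-46784921, minus strand: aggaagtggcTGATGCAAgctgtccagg
SLC3A2, chr11:62881726-62881748, plus strand, match on the opposite strand: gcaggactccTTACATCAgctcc
Counted from the annotated start as base 1, the match began at -68 from the upstream of the 2 ASNS starts, at -209 from the CHAC1 start, at -97 from the most downstream of the 3 SLC1A5 starts, and at 38, inside the transcript, from the most downstream of the 3 SLC3A2 starts. A match describes letters and not a bound site, and elements outside these windows were not searched. Whether a match went with a change in expression was not tested.

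To examine how the response genes differed between the groups, expression was fitted with limma as log2(FPKM + 0.1), for the 12985 genes whose average across the 6 input libraries reached 0.5 FPKM. All 10 genes were tested. VLDLR passed the filter through its shCtrl level, since its shALKBH5 mean was 0.460 FPKM. Of the 10, 7 were lower in shALKBH5 cells (VLDLR, CHAC1, ASNS, SLC1A5, CEBPB, ATF4 and TRIB3), 1 was higher (ATF5), and 2 were not called (SLC7A5 and SLC3A2) at an adjusted p-value under 0.05. Differences were common in this comparison. Of all tested genes 61.0% were called, 34.7% higher and 26.2% lower. After each library was rescaled by its median ratio, the 10 genes again gave 1 higher and 7 lower, and all tested genes 29.2% higher and 30.0% lower. The groups did not overlap for the same 8 called genes, and for 67.0% of all tested genes (38.0% higher and 29.0% lower). The median log2 fold change was -0.33 over the 10 genes and 0.09 over all tested genes. With the same rescaling these medians were -0.40 and 0.02.

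**Figure D1:**
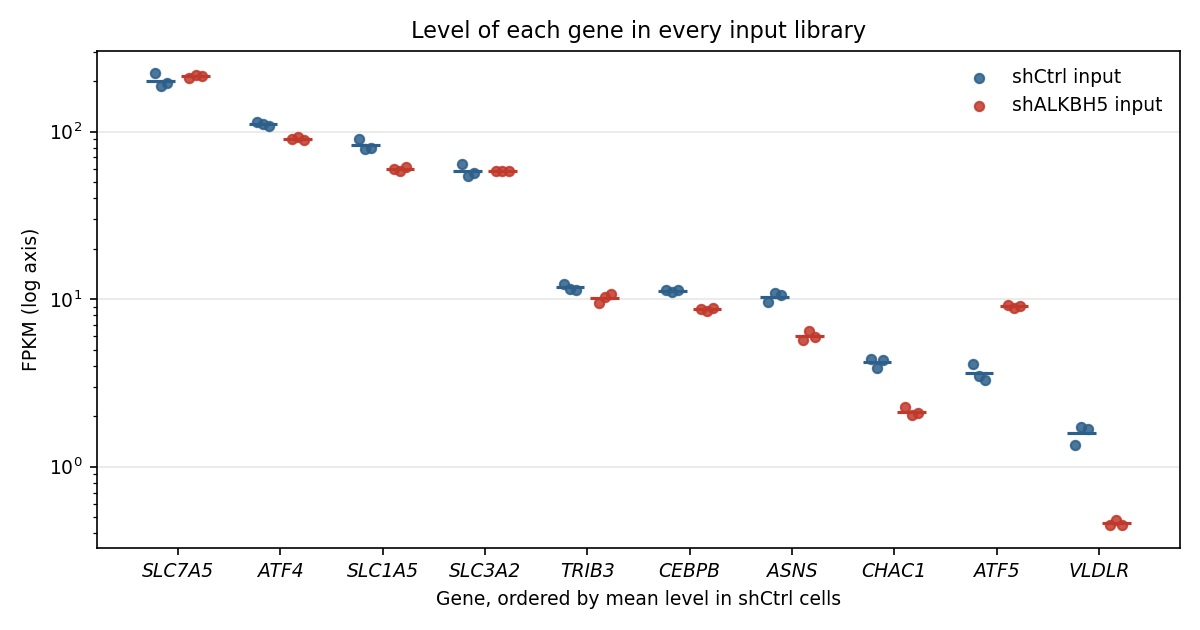
Expression of the 10 genes in every input library. Points are single libraries in FPKM on a log axis, short lines are group means, and genes are ordered by their mean in shCtrl cells. ATF5 lies higher in all 3 shALKBH5 libraries, 7 genes lie lower in all 3, and SLC7A5 and SLC3A2 overlap.

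ATF4 (ENSG00000128272, chr22:39519672-39522683, plus strand) encodes the basic leucine zipper activator of the response. In replicates 1, 2 and 3 in turn it read 90.4, 92.5 and 88.7 FPKM with shALKBH5, and 113, 111 and 108 FPKM with shCtrl. Every shALKBH5 library lay below every shCtrl library, and both groups were tightly spaced. The mean was 90.5 ± 1.92 FPKM (SD, n = 3) with shALKBH5 against 111 ± 2.54 FPKM (SD, n = 3) with shCtrl, and ATF4 fell by 0.29 on the log2 scale (SE 0.0356, limma adjusted p = 0.000313). The change was small beside the spread of the transcriptome, since 58.5% of tested genes had a larger absolute log2 fold change. Of the 4 pseudogene entries named for ATF4, ATF4P3 had the highest mean, at 1.12 FPKM in shALKBH5 and 0.807 FPKM in shCtrl cells.

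ATF5 (ENSG00000169136, chr19:49928702-49933935, plus strand) encodes a relative of ATF4 whose mRNA is likewise controlled at the level of translation by upstream reading frames. It was at 9.23, 8.83 and 9.11 FPKM in shALKBH5 and at 4.10, 3.49 and 3.27 FPKM in shCtrl cells. The groups were well apart, and ATF5 was the member that rose. Its mean was 9.06 ± 0.206 FPKM (SD, n = 3) with shALKBH5 against 3.62 ± 0.430 FPKM (SD, n = 3) with shCtrl, which is 2.50-fold higher. On the log2 scale ATF5 rose by 1.31 (SE 0.0865, limma adjusted p = 1.486e-05), and 6.83% of tested genes had a larger absolute change. NUP62 and IL4I1 overlap ATF5 on the opposite strand by 1062 and 838 bp. NUP62 was at a mean of 13.3 FPKM in shALKBH5 and 14.7 FPKM in shCtrl cells, and IL4I1 at 0.666 and 0.221 FPKM. A dUTP step, which marks strand, is described for the IP libraries, but whether the counting of input reads used strand is not given in the sources used here, and a part of these neighbours in the ATF5 value was not tested.

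CEBPB (ENSG00000172216, chr20:50190830-50192668, plus strand) encodes C/EBP beta, a leucine zipper partner of ATF4. Its values were 8.76, 8.44 and 8.85 FPKM in shALKBH5 and 11.4, 11.0 and 11.3 FPKM in shCtrl cells. All shALKBH5 libraries were lower. CEBPB fell by 0.36 on the log2 scale (SE 0.0463, limma adjusted p = 0.000369).

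VLDLR (ENSG00000147852, chr9:2621787-2660056, plus strand) encodes the very low density lipoprotein receptor. It was at 0.447, 0.482 and 0.451 FPKM in shALKBH5 and at 1.34, 1.72 and 1.68 FPKM in shCtrl cells. It had the lowest level of the 10 genes in both groups, with a mean 3.44-fold lower in shALKBH5 cells. VLDLR fell by 1.58 on the log2 scale (SE 0.139, limma adjusted p = 5.756e-05). Its fold change was larger than that of ATF5 at this pseudocount but smaller at a pseudocount of 1 (-0.82 against 1.13), and reached -1.75 at 0.01. With no filter on level the limma adjusted p was 0.000433.

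CHAC1 (ENSG00000128965, chr15:40952962-40956512, plus strand) encodes an enzyme that degrades glutathione and is a sensitive reporter of the response. It was at 2.28, 2.03 and 2.09 FPKM in shALKBH5 and at 4.37, 3.89 and 4.30 FPKM in shCtrl cells. The mean in shALKBH5 cells was 1.96-fold lower, and the libraries of the groups were separate. CHAC1 fell by 0.94 on the log2 scale (SE 0.0801, limma adjusted p = 4.935e-05).

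ASNS (ENSG00000070669, chr7:97851677-97872542, minus strand) encodes asparagine synthetase, which makes asparagine from aspartate and glutamine. It was at 5.70, 6.41 and 5.97 FPKM in shALKBH5 and at 9.56, 10.9 and 10.6 FPKM in shCtrl cells. The mean was 1.71-fold lower in shALKBH5 cells and the groups did not overlap. ASNS fell by 0.77 on the log2 scale (SE 0.0703, limma adjusted p = 7.093e-05). AC079781, listed on the same strand over 20855 bp of ASNS, was at a mean of 0.716 FPKM in shALKBH5 and 0.468 FPKM in shCtrl cells and was not called (limma adjusted p = 0.324). Its part in the ASNS value was not tested.

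TRIB3 (ENSG00000101255, chr20:362835-397559, plus strand) encodes a pseudokinase that feeds back on ATF4. It was at 9.52, 10.2 and 10.8 FPKM in shALKBH5 and at 12.4, 11.4 and 11.4 FPKM in shCtrl cells. The highest shALKBH5 library lay just below the lowest shCtrl library. TRIB3 fell by 0.20 on the log2 scale, the smallest change of the 8 called genes (SE 0.0631, limma adjusted p = 0.0250). The adjusted p ran from 0.0131 to 0.0903 over the 13 alternative settings, and the call was lost in 5 of them, among them the setting without shALKBH5 replicate 1, the one without shALKBH5 replicate 2 and the one without shCtrl replicate 1.

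The transporters split. SLC1A5 (ENSG00000105281, chr19:46774883-46788594, minus strand) encodes ASCT2, which exchanges glutamine and other neutral amino acids. It was at 59.7, 58.0 and 61.3 FPKM in shALKBH5 and at 90.6, 79.1 and 80.02 FPKM in shCtrl cells. The shALKBH5 libraries were all lower, with a log2 fold change of -0.48 (SE 0.0581, limma adjusted p = 0.000297).

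SLC7A5 (ENSG00000103257, chr16:87830023-87869507, minus strand) encodes LAT1, the light chain of the main importer of leucine and other large neutral amino acids. It was the most abundant of the 10 transcripts, at 210, 217 and 214 FPKM in shALKBH5 and 222, 188 and 194 FPKM in shCtrl cells. The shCtrl libraries lay on either side of the shALKBH5 libraries. The log2 fold change was 0.09 (95% interval -0.06 to 0.24, adjusted p = 0.268 from limma), so a change of over 0.24 in either direction lies outside the interval. Without shCtrl replicate 1, which held the highest value, the log2 fold change was 0.16 and the adjusted p 0.00559 from limma. It was 0.039 without shCtrl replicate 2 and 0.012 under rescaling by the median ratio, and was not called in either. The pseudogene entries SLC7A5P1 and SLC7A5P2 had means of at most 0.354 FPKM.

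SLC3A2 (ENSG00000168003, chr11:62856102-62888875, plus strand) encodes CD98, the heavy chain that carries LAT1 to the cell surface. It was at 58.5, 58.4 and 58.1 FPKM in shALKBH5 and 63.7, 54.5 and 56.7 FPKM in shCtrl cells. The shALKBH5 values fell within the shCtrl range, with a log2 fold change of 0.0042 (95% interval -0.13 to 0.14, adjusted p = 0.956 from limma), and its sign turned under rescaling by the median ratio, at -0.07.

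**Figure D2:**
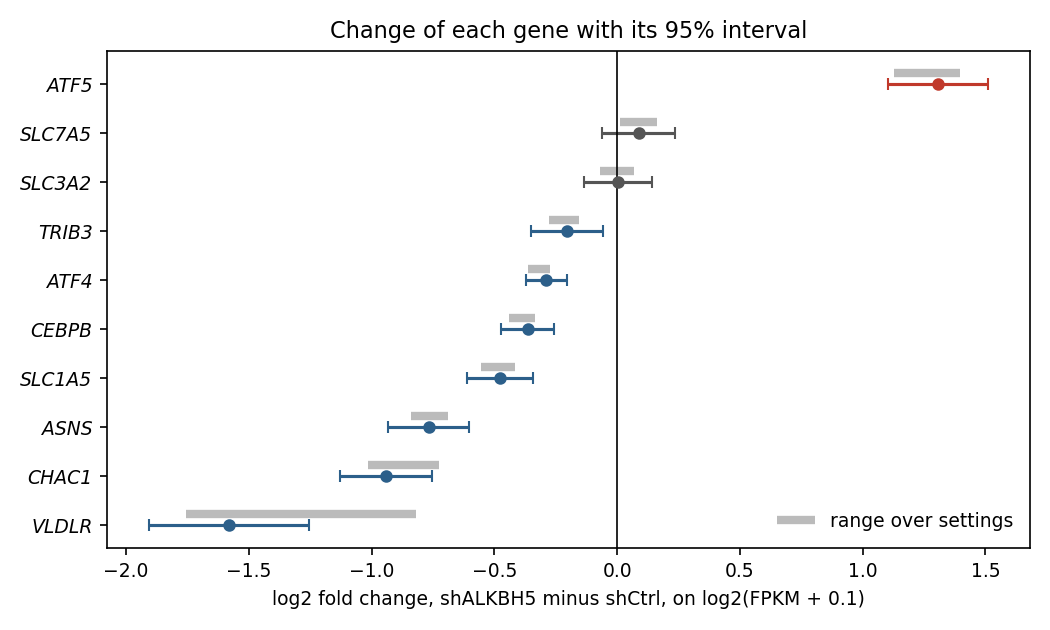
Log2 fold change of each gene, shALKBH5 minus shCtrl, on log2(FPKM + 0.1). Points and whiskers are the limma estimate and its 95% interval, blue lower, red higher and grey not called, and the grey bars span the main and 13 alternative settings. Only the bar of SLC3A2 crosses 0, from -0.07 to 0.07, and that of VLDLR is widest, from -1.75 to -0.82.

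Since SLC7A5 and SLC3A2 encode the chains of 1 transporter, their ratio was taken within each library, where library scaling cancels. SLC7A5 was at 3.58, 3.71 and 3.68 times the FPKM of SLC3A2 in shALKBH5 libraries and at 3.49, 3.44 and 3.42 times in shCtrl libraries. The values did not overlap. The mean log2 ratio was 1.87 ± 0.0273 (SD, n = 3) and 1.79 ± 0.0156 (SD, n = 3), a difference of 0.08 (two-sided p = 0.1 by exact permutation, and 3 libraries against 3 allow no lower p). SLC7A5 and SLC3A2 were both highest in shCtrl replicate 1 among the shCtrl libraries.

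**Figure D3:**
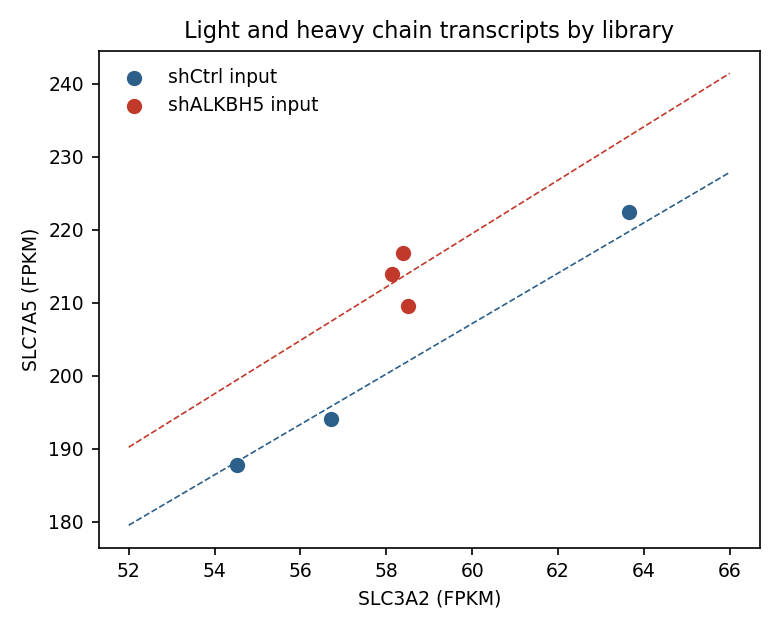
SLC7A5 against SLC3A2, both in FPKM, in the 6 input libraries, with axes that do not start at 0. Dashed lines have the mean ratio of each group as slope. The shALKBH5 libraries lie close together on SLC3A2, between 58.1 and 58.5 FPKM, and the shCtrl libraries spread along their line from 54.5 to 63.7 FPKM.

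By FPKM, which is per length, the order of levels in shCtrl cells ran from SLC7A5 through ATF4, SLC1A5, SLC3A2, TRIB3, CEBPB, ASNS, CHAC1 and ATF5 to VLDLR. CHAC1 and ATF5 were the neighbours whose library ranges overlapped, and TRIB3 and CEBPB were separated only narrowly. In shALKBH5 cells ATF5 moved above CEBPB, ASNS and CHAC1, although its range overlapped that of CEBPB, and the ranges of SLC1A5 and SLC3A2 overlapped. By mean level in shCtrl cells, SLC7A5 stood above 98.9% of tested genes, ATF4 above 97.7%, ATF5 above 48.6% and VLDLR above 27.8%.

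The other genes of the pathway were taken from 6 lists with 73 genes in the table, of which 70 were tested. With shALKBH5, 24 of them (34.3%) were called higher and 21 (30.0%) lower, against 34.7% and 26.2% of all tested genes, and after rescaling by the median ratio 21 were higher and 24 lower. They had a median log2 fold change of 0.03 that turned to -0.04 under rescaling by the median ratio. Differences between the lists were not tested, and the count of each list below stands against the same 34.7% higher and 26.2% lower of all tested genes.

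The list that acts upstream of ATF4 held the eIF2 kinases, eIF2, its exchange factor eIF2B and the subunits that direct its phosphatase. Of its 16 tested genes 12 were higher, 2 were lower and 2 were not called, with a median of 0.29 (0.21 after rescaling). Against the background of all tested genes, 75.0% were higher and 12.5% lower. Of the 12 higher calls, 4 were lost in 1 or more alternatives (EIF2AK2, IMPACT, EIF2S1 and EIF2B2), as was 1 of the 2 lower calls, EIF2B3. EIF2AK3, which encodes the kinase PERK of the endoplasmic reticulum, rose 3.27-fold from a mean of 0.745 ± 0.128 FPKM (SD, n = 3), which is 1.59 on the log2 scale (adjusted p = 4.090e-05 from limma) and 0.98 at a pseudocount of 1. EIF2AK1, the heme-regulated kinase, rose by 0.37 on the log2 scale (adjusted p = 0.00164 from limma). EIF2AK2, the kinase activated by double-stranded RNA, rose by 0.42 (adjusted p = 0.0216 from limma), a call lost in 4 of the 13 alternatives. EIF2AK4, which encodes GCN2 itself, had a log2 fold change of -0.07 (95% interval -0.29 to 0.14, adjusted p = 0.513 from limma), was called lower without shCtrl replicate 1 (-0.17, adjusted p = 0.0481 from limma), and changed sign in 1 alternative. PPP1R15B, which targets phosphatase to eIF2 in unstressed cells, rose by 0.75. Of the subunits of eIF2, EIF2S3 rose by 0.82 and EIF2S2 had a log2 fold change of -1.15. Reads shared between these subunits and related copies were not tested.

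Of the 7 tested genes among other leucine zipper partners and relatives, 2 were lower and none was higher, at a median of -0.16. They were JDP2, a repressor of the AP-1 family at -1.11 (adjusted p = 0.000370 from limma), and ATF3, a stress-induced relative of ATF4 at -0.59 (adjusted p = 0.00184 from limma). At a pseudocount of 1 they were at -0.58 and -0.38. DDIT3, which encodes the stress factor CHOP, was at a mean of 7.49 FPKM in shCtrl cells with a log2 fold change of -0.15 (adjusted p = 0.0765 from limma), and was called lower after rescaling by the median ratio, at -0.23 (adjusted p = 0.0234 from limma). The 3' end of MARS1 overlaps that of DDIT3 on the opposite strand. MARS1 was at means of 26.4 FPKM in shALKBH5 and 41.0 FPKM in shCtrl cells, and its part in the DDIT3 value was not tested.

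Among other amino acid transporters, 4 of the 9 tested genes were lower and 2 higher, at a median of -0.33. SLC1A4, the carrier of alanine, serine and cysteine most closely related to SLC1A5, was 2.69-fold lower in shALKBH5 cells, a log2 fold change of -1.40 (adjusted p = 2.916e-06 from limma). SLC38A2, an importer of small neutral amino acids, and SLC7A11, the cystine and glutamate exchanger that also pairs with SLC3A2, had log2 fold changes of -0.95 and -0.94, the latter -0.47 at a pseudocount of 1. SLC43A1, another leucine transporter, rose by 0.55.

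Of the 13 genes for amino acid and one-carbon synthesis, 6 were lower, 3 higher and 4 not called, at a median of -0.19. CBS, which condenses serine with homocysteine, had a log2 fold change of -1.05, and its reads may be shared with a near-identical copy, which was not tested. PHGDH and PSAT1, consecutive enzymes of serine synthesis, were at -1.01 and -0.63, while PSPH, the enzyme that follows them, rose by 0.50 (adjusted p = 0.000159 from limma) and is named here after its value was seen. ALDH18A1, which starts the synthesis of proline from glutamate, rose 2.33-fold from a mean of 39.4 ± 1.47 FPKM (SD, n = 3), which is 1.22 on the log2 scale (adjusted p = 7.388e-07 from limma).

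Of the 13 aminoacyl-tRNA synthetase and tRNA export genes, 4 were higher, 2 lower and 7 not called, at a median of 0.19. MARS1 had a log2 fold change of -0.63, while WARS1 rose by 0.57, LARS1 by 0.40 and YARS1 by 0.34. They charge tRNA with methionine, tryptophan, leucine and tyrosine. Of the 4 higher calls, that of LARS1 was lost in 7 of the 13 alternatives and that of NARS1 in 8, both of them without shALKBH5 replicate 1 and without shALKBH5 replicate 2. Of the 12 tested stress and signalling genes, 5 were lower, 3 higher and 4 not called, and 1 of the higher calls, CHAC2, was lost in 5 of the 13 alternatives. VEGFA, an angiogenic factor, STC2, a secreted glycoprotein, and TRIB2, a pseudokinase related to TRIB3, had log2 fold changes of -1.07, -0.96 and -0.65, and at a pseudocount of 1 VEGFA was at -0.65 and STC2 at -0.54. SESN2, an inhibitor of mTORC1, rose by 0.82 (adjusted p = 9.931e-05 from limma).

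**Figure D4:**
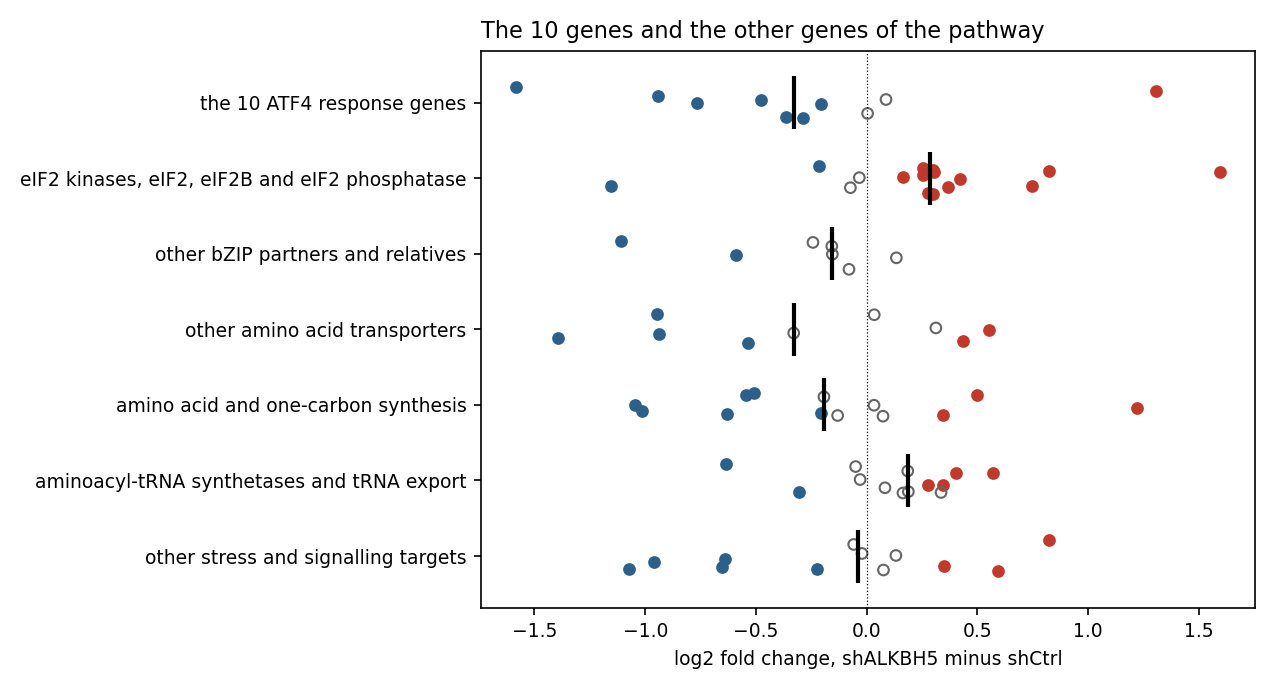
Log2 fold change, shALKBH5 minus shCtrl, of every tested gene of the 10 response genes and the 6 other pathway lists. Filled points had an adjusted p under 0.05 (red higher, blue lower), open points did not, vertical bars are medians, and the vertical scatter within a row has no meaning. The medians run from -0.33 for the 10 genes and the other transporters to 0.29 for the eIF2 list.

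To examine m6A on these transcripts, the peaks of the 10 genes were taken from the deposited lists, 1 per group, so these values have no replicate check and no test. The shALKBH5 list held 25 peaks in the 10 genes and the shCtrl list 26. By the deposited annotation 16 peaks of each list lay in the 3'UTR, 9 of each in the 5'UTR, and 1 shCtrl peak in an intron. All 10 genes had a peak in both lists, against 86.0% (shALKBH5) and 85.5% (shCtrl) of tested genes, and all 10 had a 3'UTR peak in both, where 68.7% (shALKBH5) and 67.8% (shCtrl) of all tested genes did. A 5'UTR peak was present in 6 genes of the shALKBH5 list and 7 of the shCtrl list, against 37.2% and 37.0% of tested genes. In each list 8 of the 10 genes had a peak that ended within 100 bp of the 3' end of the gene, against 39.0% and 38.3% of tested genes, and the exceptions were SLC1A5 and VLDLR. CEBPB is counted both for a 3'UTR peak and for a peak near the 3' end, though its 1 peak covered 100% of its span. The 3'UTR peaks of each list also include overlapping ASNS peaks. The 10 genes stood between 27.8% and 98.9% on the scale of shCtrl expression given above, and the part of expression level in these shares was not tested.

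Of the shALKBH5 peaks 23 of 25 (92.0%) shared 1 bp or more with a shCtrl peak of the same strand, against 78.1% of all shALKBH5 peaks. Of the shCtrl peaks 24 of 26 (92.3%) overlapped a shALKBH5 peak, against 81.3% of all shCtrl peaks. In the shALKBH5 list the peaks without a partner were a 5'UTR peak of ATF4 (chr22:39519672-39519999), whose fold enrichment of 17.1 and log10 p of -3.93 it shared exactly with other peaks, 200 in all, and a 5'UTR peak of ATF5 (chr19:49928702-49928940) at 2.45-fold. In the shCtrl list they were a 5'UTR peak of ASNS (chr7:97871850-97871939) at 1.73-fold with an FDR of 0.134, and the intronic peak of SLC3A2 (chr11:62883735-62883795) at 1.89-fold with an FDR of 0.0417.

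For each gene the peak with the lowest p lay in the same region in both lists. In ATF4 it was the terminal 3'UTR peak, chr22:39522178-39522683 at 7.06-fold in the shALKBH5 list and chr22:39522208-39522683 at 7.15-fold in the shCtrl list. Toward its 5' end ATF4 had 2 more shALKBH5 peaks at 3.18-fold and 6.12-fold with FDR of 0.0603 and 0.0115, and 2 shCtrl peaks, both at 5.75-fold. CHAC1 also had a 5'UTR peak in both lists, at 15.9-fold and 14-fold, whose fold and log10 p were shared exactly by 221 and 302 peaks of the respective lists. SLC7A5, the most abundant transcript, had the lowest p of all, at chr16:87830742-87831730 (5.76-fold, log10 p of -6520) in shALKBH5 and chr16:87830742-87831671 (6.17-fold, log10 p of -6920) in shCtrl cells. SLC3A2 had 6.08-fold and 7.01-fold at chr11:62888104-62888875 in the respective lists. ASNS had 2 overlapping 3'UTR peaks in each list, the stronger at 3.61-fold in the shALKBH5 list and 3.16-fold in the shCtrl list. CHAC1 had 11.1-fold and 12.5-fold at chr15:40955383-40956512. TRIB3 had 7.08-fold in the shALKBH5 list and 5.53-fold in the shCtrl list, both ending at 397229 on chromosome 20. Over all peaks of the 10 genes the fold ran from 1.53 to 19.6 in the shALKBH5 list and from 1.73 to 54.1 in the shCtrl list.

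In ATF5, the gene that rose, the terminal 3'UTR peak had a fold enrichment of 19.6 in the shALKBH5 list (chr19:49933458-49933935) and of 54.1 in the shCtrl list (chr19:49933488-49933935), the highest of any peak of the 10 genes in each list. The log10 p ran the other way, at -327 in the shALKBH5 list and -190 in the shCtrl list. The fold is taken over the input of the same group. The middle of the gene was called as a single peak in the shALKBH5 list (chr19:49930417-49933130, 2714 bp, 3.28-fold) and as separate peaks of 448 and 895 bp at 3.38-fold and 2.67-fold in the shCtrl list. CEBPB was called from end to end, with 1 peak covering 100% of its span at 8.80-fold in the shALKBH5 list and 8.26-fold in the shCtrl list. SLC1A5 had its lowest p in the 5'UTR, at 9.12-fold over a span of 3700 bp in the shALKBH5 list and 11.2-fold over 1191 bp in the shCtrl list, and a 3'UTR peak at 1.84-fold and 1.87-fold. In VLDLR, the lowest of the 10 in expression, the main 3'UTR peak was 781 bp wide at 7.84-fold in the shALKBH5 list and 2431 bp wide at 7.66-fold in the shCtrl list.

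The strand of some of these peaks is uncertain. In each list 4 of the 10 genes, ATF5, SLC1A5, CEBPB and VLDLR, had peaks crossed by a peak called on the opposite strand, 7 of 25 peaks in the shALKBH5 list and 8 of 26 in the shCtrl list. Over 780 bp of the 5'UTR peak of SLC1A5, AC008622, an antisense transcript, had peaks with log10 p of -585 and -583 in the shALKBH5 list, where SLC1A5 had -582. In the shCtrl list AC008622 had -948 and -949, where SLC1A5 had -947. At means of 0.175 FPKM in shALKBH5 and 0.0600 FPKM in shCtrl cells, AC008622 was far below SLC1A5 in expression. The 5'UTR peaks of ATF5 were crossed by peaks of IL4I1 in both lists and of NUP62 in the shALKBH5 list. All ATF5 peaks, the terminal one included, lay within a long called span of IL4I1 (chr19:49909501-49958362 at 14.6-fold in the shALKBH5 list and chr19:49909501-49958391 at 9.34-fold in the shCtrl list). The IP libraries had dUTP in the second strand, which marks strand, but whether the peak calling used it is not given in the sources used here, so the strand that gave the signal cannot be told apart at these positions. The other 6 genes had no peak crossed in this way in either list.

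The deposited table that compares the peaks of the groups held 3 positions in these genes, 2 in ATF5 and 1 in CEBPB, each overlapping a peak of both lists. The share of all tested genes with a position there was not counted, so nothing is read from this number.

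**Figure D5:**
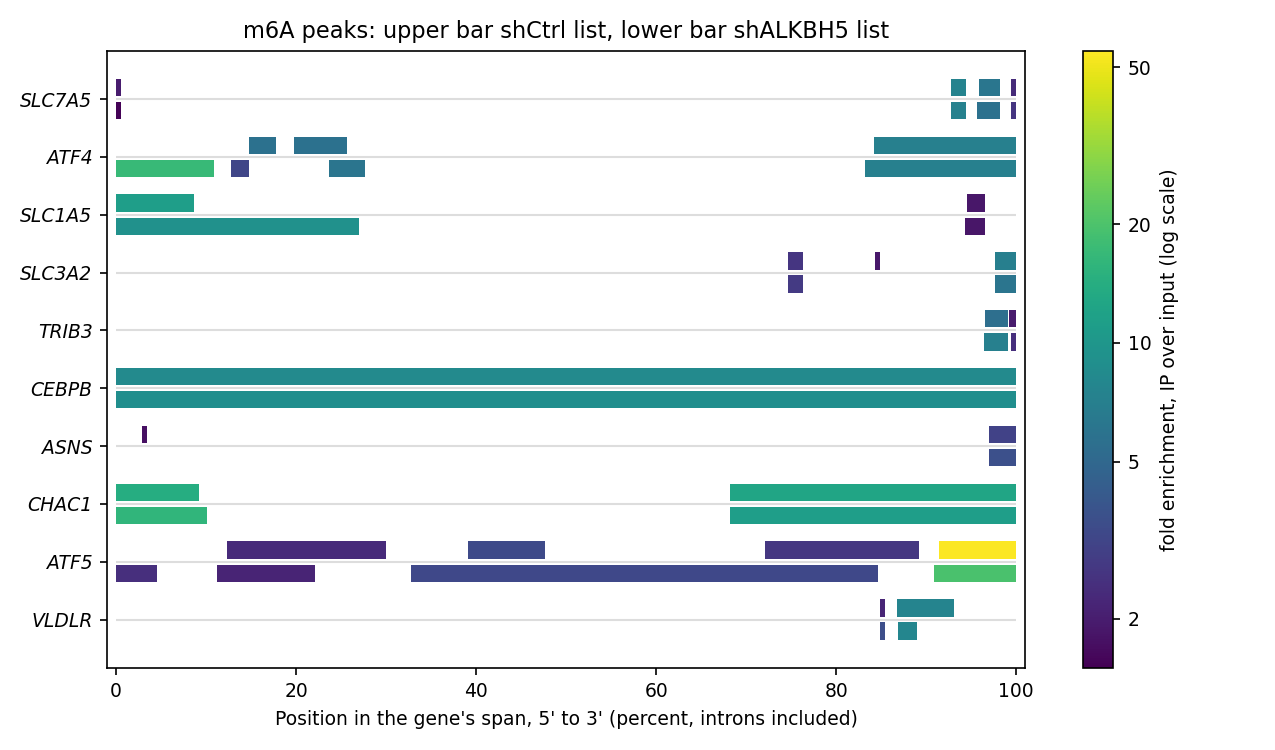
Position of every m6A peak of the 10 genes along the gene's span, in percent from the 5' to the 3' end with introns included. In each row the upper bars are shCtrl and the lower bars shALKBH5 peaks, colour gives the fold enrichment of IP over input on a log scale, and the narrowest peaks are widened to stay visible. Each gene has a bar toward its 3' end in both lists, and the highest fold is that of the terminal ATF5 peak of the shCtrl list at 54.1-fold.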

How the data were processed

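Input RNA and m6A immunoprecipitates of shALKBH5 and shCtrl A375 cells were sequenced, with 3 libraries of each kind per group. The authors deposited expression as FPKM per input library, without read counts, so the depth is unknown and 3 libraries per group limit the precision. The FPKM summed to between 212760 and 223231 per library. Low FPKM showed no steps of whole reads: the commonest ratio between replicates 1 and 2 held 0.452% (shALKBH5) and 0.446% (shCtrl) of values under 0.1 FPKM. The peak lists, 1 per group, hold the authors' fold enrichment of IP over input (a ratio) and a log10 p and log10 FDR, which were handled as a score since their range goes beyond that of usual log values. The same tables, and a table of peak differences, hold the authors' own fold changes, p-values and FDR between the groups. These were not used. From the last table only positions were taken. Aligner, counter, peak caller and pooling are not given in the sources used here. The submitters' processing notes name the build mm10, but the coordinates are human: of 21699 symbols shared with RefSeq on GRCh38.p14, 99.9% overlapped on the same chromosome. Peak starts were changed to count from 1.

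Expression was compared by limma 3.58.1 (R 4.3.3), with lmFit and eBayes with a trend, on log2(FPKM + 0.1). Tests were two-sided and Benjamini-Hochberg adjusted over the 12985 genes that averaged 0.5 FPKM or more. The study's own test needs read counts and was not repeated. The fit was tested on simulated data with normal noise and far fewer changed genes than were called here, so that test does not check these calls. Fold changes on this scale understate low genes. Other steps used Python 3.11.15 and pandas 2.3.3. The 10 genes and the lists were chosen with earlier results of these data known. All 10 were described. From each other list up to 4 called genes with the largest absolute log2 fold change and at least 1 FPKM in the higher group were named, with DDIT3 and the 4 eIF2 kinases in any case. The alternatives tried were a pseudocount of 1 or of 0.01, dropping the filter or raising it to 1 FPKM, median ratio rescaling, the replicate number as a block, eBayes with no trend, the omission of each library, peaks with at least 2-fold enrichment and an FDR of at most 0.01, and a reciprocal overlap of 50%. No genome was used here, so peak sequences were not analysed.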

Additional observations from a re-analysis of the deposited data

How the results depend on the processing

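ATF5, VLDLR, CHAC1, ASNS, SLC1A5, CEBPB and ATF4 kept their direction and their call in all 13 alternatives. The number of the 10 genes called higher ran from 1 to 2 and the number called lower from 6 to 7 when each library was left out in turn. The second higher gene was SLC7A5 without shCtrl replicate 1, and the lost lower gene was TRIB3. SLC3A2, which was not called, changed sign under rescaling by the median ratio (-0.071) and without shCtrl replicates 2 (-0.042) or 3 (-0.014), and ran from -0.042 to 0.069 with each library left out. With the replicate number as a block, 1 of the 10 genes was called higher and 6 lower, and of the other pathway genes 22 were higher and 20 lower. The deviations of same-numbered libraries correlated at 0.0181, -0.0462 and 0.0591, so no shared shift was seen. These values cannot tell whether same-numbered libraries were prepared together. TRIB3 had an adjusted p of 0.0634 from limma with the block. The other pathway genes called higher ran from 17 to 28 and lower from 20 to 24 with each library left out. Peaks with at least 2-fold enrichment and an FDR of at most 0.01 numbered 21 in each list, in all 10 genes. With a reciprocal overlap of 50%, 18 peaks of each list had a partner. The lack of read counts and of peak values per library limits what can be said of low genes such as VLDLR and of m6A differences.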
